A study of Mus musculus with 4 samples.

Results

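The 10 genes described here are those for the 4 kinases that phosphorylate eIF2 alpha (Eif2ak1, Eif2ak2, Eif2ak3 and Eif2ak4), the 2 regulatory subunits that direct protein phosphatase 1 to eIF2 alpha (Ppp1r15a and Ppp1r15b), eIF2 alpha itself (Eif2s1) and 3 subunits of the exchange factor eIF2B (Eif2b2, Eif2b4 and Eif2b5). They were chosen by gene symbol, and each of the 10 names matched 1 of the 55335 genes in the deposited tables. RNA-seq was performed on AB2.2, a single mouse embryonic stem cell (ESC) line. It had been grown on mouse embryonic fibroblast (MEF) feeders in serum medium with leukemia inhibitory factor, the GSK3 inhibitor CHIR99021 and the MEK inhibitor PD0325901. The control group (n = 2) received this medium alone, and the lactate group (n = 2) also had 50 mM lactate for 24 h, whose salt or acid form is not given in the sources used here. The labels do not say that replicates came from separate cultures, so p-values measure only the spread between these libraries.

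As background, eIF2 carries the initiator tRNA to the ribosome in its GTP-bound form, and eIF2B recharges it with GTP after each round. Phosphorylation of a serine on eIF2 alpha turns eIF2 into an inhibitor of eIF2B, which lowers general translation while it favours translation of a few mRNAs such as Atf4, and the PPP1R15 subunits let phosphatase 1 remove the mark. This circuit is called the integrated stress response. These libraries measure mRNA only, not phosphorylation or protein.

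Among the 10 genes, the phosphatase subunits stood higher with lactate (Ppp1r15b 1.74-fold and Ppp1r15a 1.37-fold), while Eif2ak2, Eif2b2, Eif2b4, Eif2b5 and Eif2s1 stood between 1.21-fold and 1.44-fold lower. The other 3 kinases differed by at most 0.17 on the log2 scale. No gene of the 10 passed the study's limits (adjusted p under 0.05, change above 2-fold) in edgeR's quasi-likelihood test, and none passed the adjusted p alone. Over all 18661 genes tested, 0.552% were called higher and 0.348% lower by both limits, and 0.991% passed the adjusted p in either direction (0.568% higher, 0.423% lower). At an adjusted p under 0.10 only Ppp1r15b of the 10 passed, where 3.78% of all genes tested were higher and 3.89% lower. Before adjustment, 2 of the 10 were higher and 3 were lower at p under 0.05, where 11.7% and 11.4% of all genes tested were. DESeq2 also called none of the 10 by both limits, and it gave 1 of them, Ppp1r15b, an adjusted p under 0.05, as it did 4.5% of all genes tested. For 2 of the 10 genes the lactate libraries were both above the control libraries, and for 6 both were under them, against 27% and 25.9% of all genes tested. The median log2 fold change was −0.22 over the 10 genes and 0.01 over all genes tested. In bulk RNA of stem cells and feeders, fewer cells of a type and less RNA per cell cannot be told apart.

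**Figure D1:**
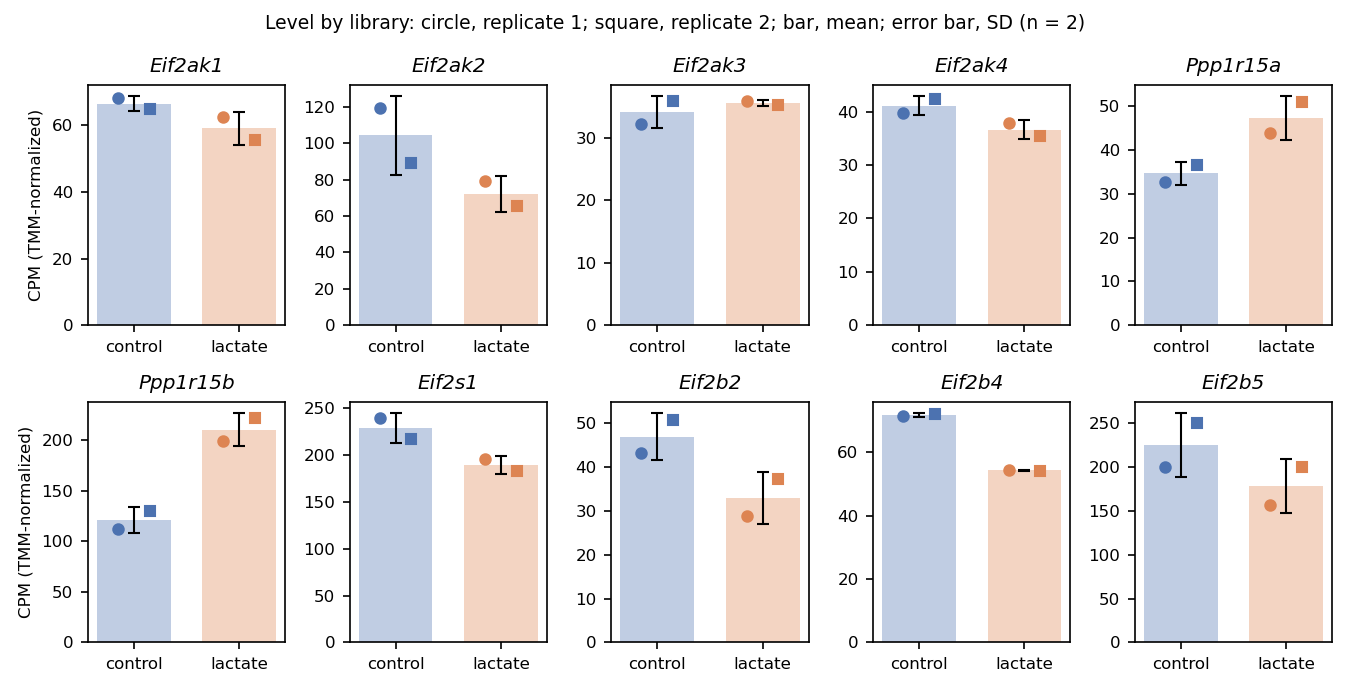
Counts scaled to library size (CPM) after TMM normalization of the 10 genes in each library, with circles for replicate 1, squares for replicate 2, bars for the group mean and error bars for the SD (n = 2). The libraries of the groups overlap only for Eif2ak3 and Eif2b5, and Ppp1r15b shows the widest gap, with 112 and 130.0 CPM in control and 199 and 222 in lactate libraries.

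Each library held between 18067562 and 19077885 gene counts, and the 10 genes had between 535 and 4761 reads in each, so all 10 passed the filter on low counts. Mitochondrial genes took 5.48% (control) and 5.72% (lactate) of the reads in replicate 1 and 2.43% and 2.82% in replicate 2, so this share followed the replicate number rather than the treatment. All 10 stem cell markers passed the filter, with Pou5f1 at 400 and 517 CPM in control and 290 and 403 CPM in lactate libraries, which overlap. Of these stem cell markers, 6 were higher and 4 lower with lactate, and 0 passed the adjusted p of 0.05 in edgeR. Their log2 fold changes ran from −0.54 (Utf1) to 0.56 (Sox2), with a median of 0.05 and Pou5f1 at −0.40. The summed level of 15 feeder fibroblast markers was 541 and 773 CPM in the control and 538 and 617 CPM in the lactate libraries, which overlap, and Col1a1 among them reached 294 CPM. Of these feeder markers, 5 were higher and 10 lower with lactate. Their part in the results was not tested.

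The regulatory subunits of the phosphatase were the genes with the largest values in the upward direction. Ppp1r15b encodes CReP, the subunit known for constitutive activity against phosphorylated eIF2 alpha, and lies on chromosome 1 (GRCm38, 133131143 to 133139783). Its reads numbered 1944 and 2466 without lactate and 3699 and 4381 with it. Every lactate library was thus above every control library. After normalization its level was 121 ± 12.4 CPM in control and 211 ± 16.3 CPM in lactate cells (SD, n = 2). The log2 difference was 0.80 ± 0.15 (SE), with an adjusted p of 0.0578 in edgeR, just above the limit. A smaller p was found for 2.33% of all genes tested, and 10.9% had a larger change. DESeq2 gave Ppp1r15b a log2 fold change of 0.79 and an adjusted p of 0.00476, and edgeR without the filter on low counts gave 0.75 and 0.00697. In those fits 4.5% and 5% of all genes tested had an adjusted p under 0.05, against 0.991% in the main fit. Ppp1r15b did not pass with RSEM expected counts in edgeR (0.77, adjusted p 0.0713) or limma on log2(FPKM + 1) (0.86, adjusted p 0.243). Upper-quartile factors and library totals alone gave adjusted p-values of 0.0574 and 0.0607 in edgeR. Leaving out lactate replicate 1 gave 0.85 with an adjusted p of 0.0171 in edgeR, whereas leaving out control replicate 1 gave 0.68 with 0.219. In such fits the group left with 1 library adds nothing to the estimate of the spread and is assumed to vary like the other.

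Ppp1r15a encodes GADD34, the stress-inducible counterpart, which is itself known as a gene activated in the integrated stress response, and lies on chromosome 7 (45522916 to 45526268). Its reads numbered 567 and 694 in control and 816 and 1005 in lactate libraries, again without overlap. The level was 34.7 ± 2.68 CPM in control and 47.4 ± 4.98 CPM in lactate cells (SD, n = 2). This gave a log2 difference of 0.45 ± 0.15 (SE), an unadjusted p of 0.0225 and an adjusted p of 0.151 in edgeR, so the difference did not hold over all genes tested. With each library left out in turn, its log2 fold change ranged from 0.34 to 0.53.

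Levels of different genes were compared only per length, in the TPM unit of RSEM, which divides reads by transcript length and by the library's sum. Of the summed TPM of the pair, Ppp1r15b held 56.3% and 58.0% without lactate and 63.3% and 62.9% with it. The share of Ppp1r15b was thus higher in both lactate libraries, and the sum itself was 54.7 and 62.9 TPM in control and 92.6 and 103 TPM in lactate libraries. An exact two-sided permutation test of 2 against 2 libraries cannot give a p below 0.333, so no test was made of these shares. The catalytic genes of phosphatase 1, which serve many other complexes, were tested beside them. Ppp1ca, Ppp1cb and Ppp1cc had log2 fold changes of −0.05, 0.38 and 0.19, and none passed the test, with adjusted p-values in edgeR from 0.299 to 0.859. With library totals alone all 3 were positive.

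**Figure D2:**
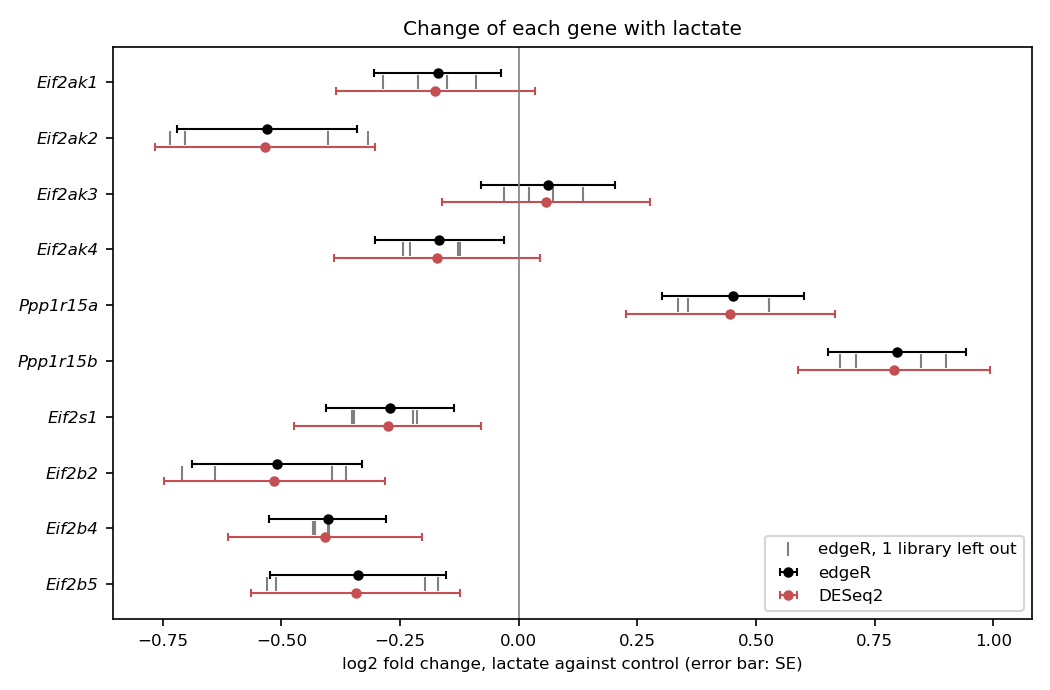
Log2 fold change of each of the 10 genes, lactate against control, from edgeR (black) and DESeq2 (red) with standard errors as bars, and from edgeR with 1 library left out (grey ticks). Ppp1r15a and Ppp1r15b lie right of 0 and Eif2ak1, Eif2ak2, Eif2ak4, Eif2s1, Eif2b2, Eif2b4 and Eif2b5 left of it in all of these fits, while Eif2ak3 spans 0.

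The promoter of Ppp1r15a is printed because it carries a cyclic AMP response element, the palindrome bound by CREB and ATF proteins. It is the RefSeq sequence on GRCm38.p6, chr7:45526219-45526518, on the minus strand, with 250 bases before and 50 from the annotated start, and capitals mark the motifs found.

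Ppp1r15a: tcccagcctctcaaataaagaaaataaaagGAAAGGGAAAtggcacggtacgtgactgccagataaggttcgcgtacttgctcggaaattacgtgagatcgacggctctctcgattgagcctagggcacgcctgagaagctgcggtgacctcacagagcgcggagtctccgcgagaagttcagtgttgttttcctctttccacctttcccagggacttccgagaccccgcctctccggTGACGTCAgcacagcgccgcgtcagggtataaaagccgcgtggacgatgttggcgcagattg

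Both strands were searched for 4 motifs. The palindromic element TGACGTCA starts 12 bases upstream of the annotated start of Ppp1r15a, and 1.79% of all 32851 promoters of this length hold it. The first motif in capitals is the core of the interferon-stimulated response element, made of GAAA, any 2 bases and GAAA, which 3.44% of all promoters hold. The table matched 9 of the 10 genes, all but Ppp1r15b, and none of their promoters held the core of the C/EBP-ATF response element, TGATGNAA (3.97% of all promoters), or the endoplasmic reticulum stress element, abbreviated ERSE (0.119%). These matches are letters in a window and were not tested as sites.

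Of the kinases, Eif2ak2 differed most between the groups. It encodes PKR, which is activated by double-stranded RNA and whose gene is known to be induced by interferon, and lies on chromosome 17 (78852564 to 78882573). Eif2ak2 had 2068 and 1686 reads in control and 1470 and 1288 reads in lactate libraries, so both lactate libraries were lower. Its level was 104 ± 21.7 CPM in control and 72.2 ± 9.75 CPM in lactate cells (SD, n = 2), which is 1.44-fold lower, and the control libraries themselves differed 1.35-fold. The log2 difference of −0.53 ± 0.19 (SE) had an unadjusted p of 0.0298 and an adjusted p of 0.170 in edgeR. It was −0.32 without control replicate 1 and −0.73 without control replicate 2 (edgeR adjusted p-values of 0.534 and 0.120).

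The lower level of Eif2ak2 went with lower levels of other interferon-stimulated genes. A list of 36 such genes without Eif2ak2 was chosen with earlier results of these data known. Of these, 32 passed the filter, and all 32 had a negative log2 fold change, with a median of −0.77. Of all 18661 genes tested, 9139 were lower. Of the genes under the filter, Mx1 was higher in both lactate libraries (4 and 1 reads in control, 10 and 8 in lactate libraries). Ifit3 was lower in both, and the libraries of Rsad2 and Ifi44 overlapped between the groups. Usp18, Oas2 and Oasl1 passed both limits of the call in edgeR (−1.96, −1.51 and −1.57), where 0.348% of all genes tested were called lower. An adjusted p under 0.05 was given to 11 of the list by DESeq2 and to 2 by edgeR on the RSEM expected counts. Of all genes tested, 4.5% and 0.282% had it in those fits. Limma on FPKM gave it to 0 of the 35 genes of the list then tested and to 0% of all genes, and 2 of the 35 were positive. With upper-quartile factors or library totals alone, 31 of the 32 were negative, and with 1 library left out at most 2 of the 34 or 35 then tested were positive. The summed level of the list was 1508 and 1428 CPM in control and 923 and 940.0 CPM in lactate libraries. Whether the value of Eif2ak2 belongs with these genes was not tested.

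The promoter of Eif2ak2 is shown because its only match to the 4 motifs is the interferon-stimulated core, with the letters GAAAACGAAA. It is the RefSeq sequence on GRCm38.p6, chr17:78882523-78882822, minus strand, with the match in capitals, whose first base lies 18 bases downstream of the annotated start.

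Eif2ak2: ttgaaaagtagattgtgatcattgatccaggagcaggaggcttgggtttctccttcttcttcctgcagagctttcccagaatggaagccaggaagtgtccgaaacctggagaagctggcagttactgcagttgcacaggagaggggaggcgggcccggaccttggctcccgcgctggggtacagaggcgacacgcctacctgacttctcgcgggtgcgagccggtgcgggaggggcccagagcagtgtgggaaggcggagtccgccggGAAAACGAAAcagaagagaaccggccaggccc

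The core was found in the promoters of 3 of the 9 genes searched, namely Eif2ak2, Ppp1r15a and Eif2s1, whose log2 fold changes were −0.53, 0.45 and −0.27.

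The remaining kinases lay close to their control levels. Eif2ak1 encodes HRI, which is controlled by heme and relays mitochondrial stress, and had 1179 and 1231 reads in control and 1164 and 1097 in lactate libraries. Scaled to library size these were 66.5 ± 2.33 and 59.1 ± 4.96 CPM (SD, n = 2), a log2 difference of −0.17 ± 0.13 (SE). Both lactate libraries were below both control libraries, but the gap was small and the adjusted p in edgeR was 0.494. The log2 difference was −0.29 without lactate replicate 1 and −0.09 without lactate replicate 2. Eif2ak4 encodes GCN2, the sensor of uncharged tRNA when amino acids run short, and had 689 and 805 reads in control and 704 and 698 in lactate libraries. Its log2 difference was −0.17 as well (SE 0.14, adjusted p 0.511 in edgeR), from 41.1 ± 1.83 to 36.6 ± 1.76 CPM (SD, n = 2). Eif2ak3 encodes PERK, the kinase in the membrane of the endoplasmic reticulum, and had 558 and 682 reads in control and 668 and 696 in lactate libraries. These overlap after scaling, at 34.1 ± 2.60 and 35.6 ± 0.463 CPM (SD, n = 2), and the log2 difference of 0.06 (SE 0.14, adjusted p 0.841 in edgeR) turned to −0.03 without control replicate 1.

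Per length, Eif2ak2 was the most abundant of the kinase mRNAs in every library. It held 49.4% and 42.5% of the summed TPM of the 4 kinases in control and 39.3% and 36.8% in lactate libraries. Its share was thus lower in both lactate libraries, and the sum of the kinases was 90.8 and 80.0 TPM in control and 85.2 and 66.9 TPM in lactate libraries. Eif2ak1 came next, with 25.6% and 25.3% in control and 26.7% and 27.5% in lactate libraries. Eif2ak3 held 13.1% and 17.3% in control and 21.5% and 20.0% in lactate libraries, but the value of lactate replicate 1 goes with a shorter RSEM length in that library. With raw counts over the mean effective length of the 4 libraries, an alternative chosen after seeing the data, Eif2ak3 held 11.9% and 15.1% in control and 16.3% and 18.1% in lactate libraries.

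**Figure D3:**
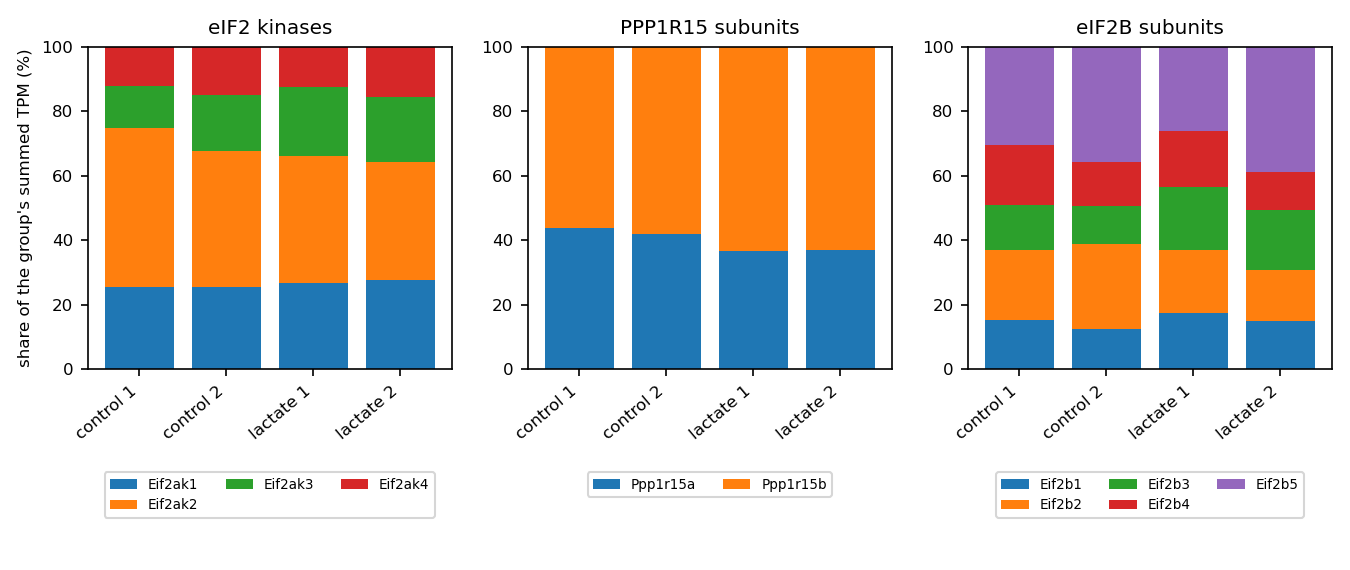
Share of each gene in the summed TPM of its group in each library, for the 4 eIF2 kinases, the 2 PPP1R15 subunits and the 5 eIF2B subunits, where each bar adds to 100%. Eif2ak2, Ppp1r15a and Eif2b2 take a smaller share in both lactate libraries than in either control library. Eif2ak1, Eif2ak3, Ppp1r15b and Eif2b3 take a larger share.

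Among the genes that regulate the kinases, 1 of 15 tested passed the call, and it was lower, where 0.348% of all genes tested were called lower. Hspa5, the chaperone BiP that holds PERK inactive in the endoplasmic reticulum, fell from 529 and 617 CPM in control to 232 and 281 CPM in lactate libraries, a log2 difference of −1.16 ± 0.17 (SE) and an adjusted p of 0.0467 in edgeR. The other 14 did not pass the adjusted p, and over the list 6 were higher and 9 lower, with a median log2 fold change of −0.07. No gene of the list passed with library totals alone, with at least 10 counts in every library, with RSEM expected counts, with limma on FPKM or without control replicate 1, so the call of Hspa5 was lost in each of these fits. The median was −0.36 without control replicate 1, with 4 higher and 11 lower, −0.32 without lactate replicate 2, with 5 and 10, and −0.01 without control replicate 2. The genes of this list that follow were named after their values were seen. Oma1, the mitochondrial protease upstream of HRI, had 0.54 with an unadjusted p of 0.0221, and Dele1, its substrate, had 0.27 (edgeR adjusted p-values of 0.150 and 0.269). Hsp90ab1, a chaperone of kinases, had −0.50 with an adjusted p of 0.156 in edgeR. The partners of GCN2, Gcn1 and Impact, which activate and inhibit it, had −0.20 and −0.07. Prkra, an activator of PKR, had −0.29 and the inhibitor Tarbp2 had −0.35.

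Eif2s1, the substrate of the kinases, lies on chromosome 12 (78861819 to 78887010) and had 4152 and 4123 reads in control and 3651 and 3602 reads in lactate libraries. The groups did not overlap, and the gap was 1.21-fold. Levels were 229 ± 16.1 and 189 ± 9.77 CPM (SD, n = 2), with a log2 difference of −0.27 ± 0.14 (SE) and an adjusted p of 0.290 in edgeR. Its partner subunits were measured beside it. Eif2s2, which encodes eIF2 beta, had 0.16, and Eif2s3x, which encodes eIF2 gamma from the X chromosome, had −0.15. Eif2s3y, the Y-linked copy of the gamma gene, had 0.43, with control libraries that differed 1.42-fold. No partner passed the test, with adjusted p-values in edgeR from 0.315 to 0.604. Eif2s3x and Eif2s3y are close copies, and RSEM assigned Eif2s3x between 119% and 132% of its raw counts, so their single values are uncertain. With limma on FPKM, Eif2s3x turned positive, as did Eif2b1 of the exchange factor.

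The 3 eIF2B genes of the set were all lower with lactate. Eif2b4, which encodes the delta subunit of the regulatory core and lies on chromosome 5 (31187558 to 31193430), had 1233 and 1369 reads in control and 1011 and 1068 in lactate libraries. Its replicates were the closest of the 10 genes, at 71.7 ± 0.604 CPM in control and 54.3 ± 0.176 CPM in lactate cells (SD, n = 2), and the groups lay 1.32-fold apart. The log2 difference was −0.40 ± 0.12 (SE), with an unadjusted p of 0.0159 and an adjusted p of 0.132 in edgeR. Over its 14 alternatives the log2 fold change lay between −0.50, from the RSEM expected counts, and −0.31.

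Eif2b2, which encodes the beta subunit of the same core and lies on chromosome 12 (85219481 to 85226628), had 746 and 962 reads in control and 535 and 733 in lactate libraries. Both lactate libraries were lower once scaled, at 46.9 ± 5.35 CPM in control and 33.0 ± 5.92 CPM in lactate cells (SD, n = 2). The log2 difference was −0.51 ± 0.18 (SE), with an unadjusted p of 0.0282 and an adjusted p of 0.166 in edgeR. Eif2b5, which encodes the catalytic epsilon subunit and lies on chromosome 16 (20498817 to 20509323), had 3454 and 4761 reads in control and 2906 and 3949 in lactate libraries. Its groups overlapped, since lactate replicate 2 at 200.2 CPM was level with control replicate 1 at 199.7 CPM. Levels of 225 ± 36.2 and 178 ± 31.0 CPM (SD, n = 2) gave a log2 difference of −0.34 ± 0.19 (SE) and an adjusted p of 0.332 in edgeR. The value was −0.17 without control replicate 2, −0.20 without lactate replicate 1, −0.51 without control replicate 1 and −0.53 without lactate replicate 2. In both groups replicate 2 was above replicate 1 for Eif2b2 and Eif2b5, by 1.18-fold to 1.29-fold, as the mitochondrial share differed between the replicate numbers. The part of that share in these values was not tested.

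The eIF2B subunits outside the set were also measured. Eif2b3, which encodes the gamma subunit and pairs with epsilon in the catalytic arm, had 1007 and 1057 reads in control and 1342 and 1342 in lactate libraries. The lactate libraries were above both control libraries, with a log2 difference of 0.30 ± 0.13 (SE) and an adjusted p of 0.225 in edgeR. Eif2b1, the alpha subunit that completes the decamer, had −0.07 ± 0.13 (SE). Eif2b3 thus held 14.1% and 11.8% of the summed TPM of the 5 subunits in control and 19.7% and 18.7% in lactate libraries. Eif2b2 held 21.7% and 26.4% in control and 19.6% and 15.6% in lactate libraries, the opposite order, but its RSEM effective length differed 1.62-fold between libraries. Raw counts over the mean effective length gave Eif2b2 21.1% and 22.4% in control and 16.5% and 19.5% in lactate libraries, a smaller gap. The TPM shares of Eif2b4 and Eif2b5 overlapped between the groups. Over the mean effective length those of Eif2b4 did not, at 18.9% and 17.2% in control and 16.9% and 15.4% in lactate libraries.

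Over the 10 genes, levels per length spanned an order of magnitude. In the control libraries the means ran from Eif2b5 at 144 ± 35.5 TPM through Eif2b2 at 105 ± 28.3, Eif2s1 at 102 ± 2.47, Eif2b4 at 69.0 ± 6.0, Eif2ak2 at 39.4 ± 7.66, Ppp1r15b at 33.6 ± 4.02, Ppp1r15a at 25.2 ± 1.77, Eif2ak1 at 21.8 ± 2.12 and Eif2ak3 at 12.8 ± 1.37 to Eif2ak4 at 11.4 ± 0.764 TPM (SD, n = 2). Neighbours whose libraries overlapped were Eif2b5 with Eif2b2, Eif2b2 with Eif2s1, Eif2ak2 with Ppp1r15b and Eif2ak3 with Eif2ak4. In the lactate libraries Ppp1r15b had rank 4, at 61.8 ± 4.59 TPM, among libraries that overlapped those of Eif2b2 and Eif2b4, and Ppp1r15a at 36.2 ± 3.08 TPM stood above Eif2ak2 at 29.0 ± 6.26 TPM.

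RSEM gives each gene a transcript length that is averaged over its transcripts by their estimated abundance, so this length moves when the assigned transcripts change. For 6 of the 10 genes it differed by at most 1.08-fold between libraries. Eif2b2, with 7 annotated transcripts, ranged from 856 to 1183 bases, and Eif2b4, with 12, ranged from 1271 to 1760 bases. Eif2ak3 had 3544 bases in lactate replicate 1 and between 4395 and 4456 in the other libraries, and its TPM there was 18.3 against 11.9, 13.8 and 13.4 elsewhere. Its expected count in lactate replicate 1 was 678 and in lactate replicate 2 was 670.0, so these 2 libraries differed far more in the assigned length than in reads. For Eif2ak3, Eif2b2, Eif2b4 and Eif2b5 the lengths of the groups overlapped, whereas for Ppp1r15b they did not, although they stayed within 1.02-fold (5383 and 5388 bases in control, 5343 and 5257 in lactate libraries).

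**Figure D4:**
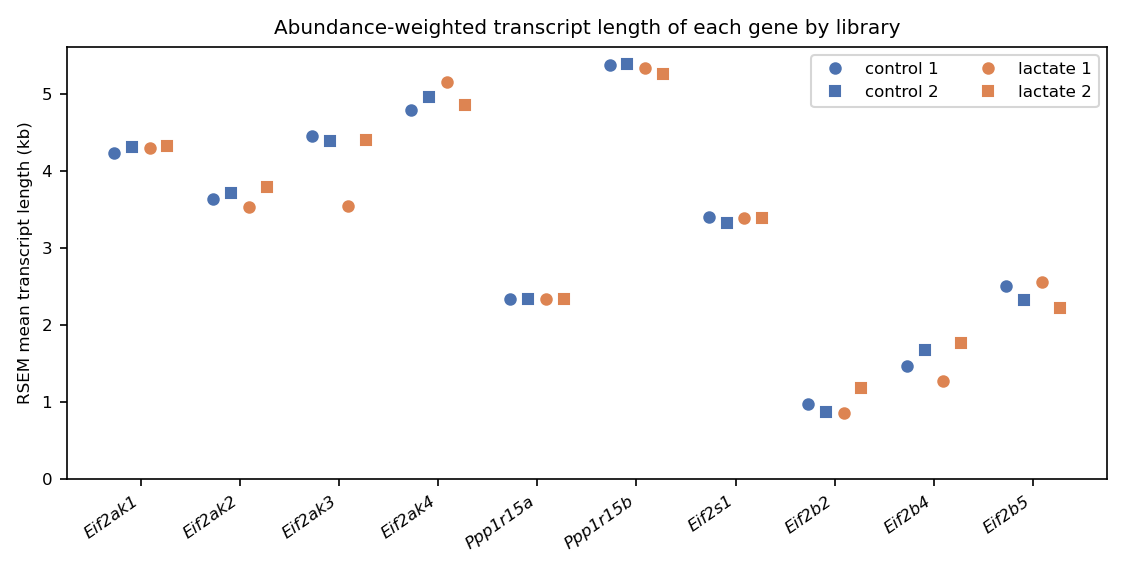
Transcript length in kilobases that RSEM assigned to each of the 10 genes in each library, averaged over transcripts by abundance, with blue for control, orange for lactate, circles for replicate 1 and squares for replicate 2. Eif2ak3 stands apart in lactate replicate 1, at 3544 bases, and as a ratio of longest to shortest Eif2b4 (1.39) and Eif2b2 (1.38) spread most of the 10.

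In the annotation, 6 of the 10 genes share exonic bases with another gene, in each case on the opposite strand, and the sources used here do not say whether counting used strand. Ppp1r15b shares 11.44% of its exonic bases with Gm26616, a locus annotated as TEC (to be experimentally tested) that had 139 and 180 reads in control and 253 and 303 in lactate libraries. The log2 fold change of Gm26616 was 0.72, near that of Ppp1r15b, and if strand was not used, reads over the shared bases cannot be assigned to one of the pair. Eif2ak1 shares 8.59% with Aimp2 and Eif2b4 7.85% with Snx17, which had log2 fold changes of −0.45 and −0.30. Eif2ak3, Eif2ak2 and Ppp1r15a share 8.05% or less with any gene. In the RSEM expected counts, the log2 fold changes were 0.77 for Ppp1r15b, −0.16 for Eif2ak1 and −0.50 for Eif2b4.

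Products known to follow eIF2 phosphorylation were measured as a list of their own, chosen with earlier results of these data known. All 13 genes of this list had higher levels with lactate (median log2 fold change 1.09), as did 9522 of all 18661 genes tested. Both limits of the call in edgeR were passed by 7, namely Chac1, Atf3, Nupr1, Trib3, Vldlr, Ddit3 and Cebpg. Of all genes tested, 0.552% were called higher. Chac1, which degrades glutathione, rose by 4.10 on the log2 scale, and Ddit3, which encodes CHOP, an activator of Ppp1r15a transcription, rose by 1.33 (adjusted p-values of 0.0165 and 0.0396 in edgeR). Atf3 rose by 2.49, Nupr1 by 2.18, Trib3 by 2.13, Vldlr by 1.77 and Cebpg by 1.09 on the log2 scale. Ddit3 has more than 1 row in the files, and the value is that of ENSMUSG00000025408.15. Atf4, named for its role although it did not pass, had 1.00 with an adjusted p of 0.0688 in edgeR. Of the 13, an adjusted p under 0.05 was given to 9 by DESeq2 and to 5 by edgeR on the RSEM expected counts. Of all genes tested, 4.5% and 0.282% had it in those fits. Limma on FPKM gave it to 0 of the 13, as it gave it to 0 of all genes. Without control replicate 2 the direction was higher for 12.

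**Figure D5:**
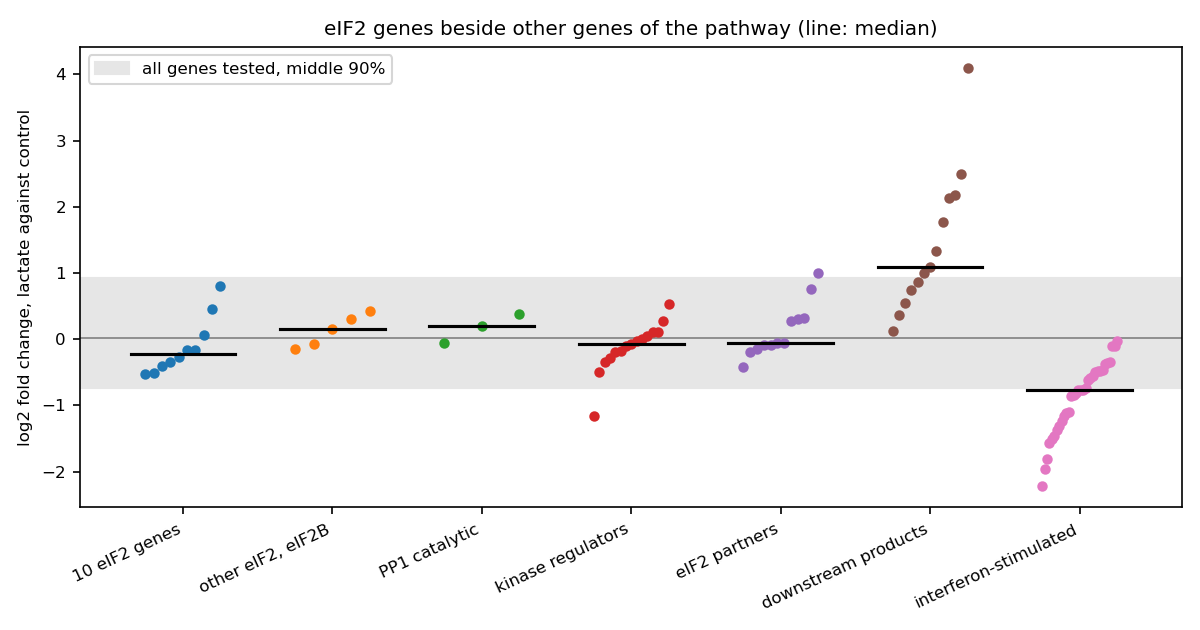
Log2 fold change of every tested gene of the 10 eIF2 genes and of 6 further lists, lactate against control, with a line at each list's median and a grey band over the middle 90% of all genes tested, from −0.74 to 0.93. The 10 genes lie within the band, the products downstream of eIF2 phosphorylation reach above it to 4.10, and the interferon-stimulated genes reach below it to −2.22. The kinase regulators also reach below it, to −1.16 (Hspa5), and the eIF2 partners above it, to 1.00 (Eif1).

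Because no gene of the 10 passed the adjusted p, Ppp1r15b, which had the smallest p, was set against all other genes tested by the distance of its centred log2 CPM over the 4 libraries. The nearest were Aldh1a2, Xkr9 and Gm20610, with Pearson's r between 0.998 and 1.00. With 4 libraries such values are common, and 7.37% of all genes tested had an r above 0.95 with Ppp1r15b.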

How the data were processed

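Gene counts, whole-number reads per gene for 2 control and 2 lactate libraries, were deposited by the authors without normalization, alongside counts of 1153 repeat families that were not used. The authors also deposited RSEM tables with expected counts, TPM and FPKM per gene. Per the labels, the submitters' processing notes name cutadapt 1.16, STAR and RSEM. The study's methods say that reads were trimmed, mapped with STAR and counted over exons of a GENCODE mouse annotation by STAR's gene-count mode, and that DESeq2 was used for the authors' own comparison. Strand and multi-mapping settings are not given in the sources used here. Effective lengths in those tables are the authors' values.

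Counts of 18661 genes that passed filterByExpr were scaled by TMM and tested with edgeR's quasi-likelihood test and Benjamini-Hochberg adjustment (edgeR 4.0.16, R 4.3.3; limma 3.58.1; DESeq2 1.42.0). The call was an adjusted p under 0.05 with more than 2-fold change. CPM values use TMM library sizes. Expected counts were rounded for an alternative fit, and FPKM was tested with limma on log2(FPKM + 1) and log2(FPKM + 0.1). The script was tested on simulated data. Positions are from GENCODE M21 and promoters from RefSeq (GRCm38.p6). Genes named by rule were the 10 genes, the other subunits of eIF2 and eIF2B, the catalytic genes of phosphatase 1, every listed gene with an adjusted p under 0.05, and the 3 genes nearest in pattern to the gene of smallest p. Other genes named were chosen after their values were seen. The members and lists were chosen with earlier results of these data known. Gene totals ranged from 18067562 to 19077885 reads, which limits counting error but not the spread between 2 libraries. Alternatives were DESeq2, other scalings and filters, a replicate block, RSEM values and leaving out each library.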

Additional observations from a re-analysis of the deposited data

How the results depend on the processing

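Of the log2 fold changes of the 10 genes under alternatives, 128 kept their direction and their side of the adjusted p of 0.05, 11 came to pass it and 1 turned, Eif2ak3 at −0.031 without control replicate 1. Leaving out each library in turn gave 0.68 to 0.90 for Ppp1r15b and −0.03 to 0.14 for Eif2ak3. Ppp1r15b passed at 0.79 with DESeq2 and at 0.75 with no filter, but not with RSEM expected counts (0.77) or limma on FPKM (0.86 and 0.88). The replicate numbers are shared between the groups, and the replicate 1 minus replicate 2 differences correlated at 0.638 over genes, but nothing in the labels ties the numbers to a culture or day. With a replicate block, 44.5% of all genes tested had an adjusted p under 0.05, and 8 of the 10 genes did, namely Eif2ak1 (−0.17), Eif2ak2 (−0.52), Ppp1r15a (0.45), Ppp1r15b (0.80), Eif2s1 (−0.27), Eif2b2 (−0.51), Eif2b4 (−0.40) and Eif2b5 (−0.34).

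Over all genes, 103 higher and 65 lower calls became 213 and 162 with DESeq2, 482 and 325 with no filter, 761 and 395 with the block, and 27 and 17 with RSEM expected counts. Both limma fits on FPKM gave 0 and 0. Library totals alone gave 108 and 40, so 73% of calls were higher against 61.3%. Leaving out 1 library gave 45 to 502 higher and 39 to 367 lower calls, the fewest without control replicate 1 and the most without lactate replicate 2. The causes were not tested.

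In shares, raw counts per effective length gave 25.9% for Eif2ak1 in control, and 39.9% for Eif2ak2, 18.2% for Eif2ak3, 35.7% for Ppp1r15a and 64.3% for Ppp1r15b in lactate cells. Raw counts over the mean effective length gave 41.6% for Ppp1r15a and 58.4% for Ppp1r15b in control, and 27.8% for Eif2ak1, 40.2% for Eif2ak2, 17.2% for Eif2ak3, 35.9% for Ppp1r15a and 64.1% for Ppp1r15b in lactate cells. With 2 libraries a group, the spread and not the depth limits these values.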

Other observations

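Of 12 genes that act with eIF2 in start site selection or start translation without it, 5 were higher and 7 lower with lactate, and none passed the adjusted p of 0.05 in edgeR or both limits of the call. DESeq2 and edgeR with no filter each gave an adjusted p under 0.05 to 1 gene, which was higher, against 4.5% and 5% of all genes tested. With a replicate block 7 had it, 5 higher and 2 lower, against 44.5% of all genes tested. The tally turned to 7 higher and 5 lower with library totals alone or without control replicate 1, and to 8 and 4 with limma on FPKM. Before adjustment 2 were higher and 1 lower at p under 0.05. The 3 genes, named after their values were seen, were Eif1, which keeps start codon choice strict, its copy Eif1b, and Bzw1, which competes with Eif5. Eif1 had 2388 and 4531 reads in control and 5210 and 9377 in lactate libraries, a log2 difference of 1.00 ± 0.34 (SE) and an adjusted p of 0.154 in edgeR. Its lactate libraries were both higher, although replicates of one group differed almost as much as the groups did. Eif1b had 187 and 232 reads in control and 268 and 482 in lactate libraries (log2 fold change 0.75). Bzw1 had 6902 and 7491 reads in control and 5660 and 5679 in lactate libraries, and its log2 difference was −0.42 ± 0.13 (SE).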
